A study of Mus musculus with 6 samples.

Results

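The collagen- and laminin-binding integrins were followed in MC3T3-E1 cells, a mouse calvarial cell line that the sample labels describe as pre-osteoblasts, after knockdown of Hdac4, which encodes a class IIa histone deacetylase. The members were chosen by gene name as Itga1, Itga2, Itga10, Itga11, Itga3, Itga6, Itga7, Itgb1 and Itgb4, which are 9 of the 53801 gene identifiers counted in each library. The Control group (3 libraries) carried a lentivirus with a scrambled, non-silencing shRNA, and the Hdac4-knockdown group (3 libraries) carried the same type of lentivirus with an shRNA against Hdac4, which the labels give as Hdac4-shRNA and the study's text as Hdac4-shRNA3. All 6 libraries therefore come from cells that were infected with lentivirus and kept in puromycin at 5 μg/mL for 7 days, and there was no uninfected group. Each group has 3 separately prepared RNA samples, which the study's text calls biological replicates. Neither the labels nor that text says whether these came from separate infections or cultures. The p-values therefore measure the spread between these RNA samples. The 1 shRNA that was sequenced has no second shRNA beside it here, and effects of this hairpin other than on Hdac4 cannot be told apart from the effect of the knockdown.

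Integrins are cell-surface receptors made of an alpha and a beta subunit that join the extracellular matrix to the actin or the keratin cytoskeleton. The collagen-binding alpha subunits carry an extra inserted domain that holds the collagen and pair with the Itgb1 product. The laminin-binding alpha subunits lack that domain and pair with the Itgb1 product, while the Itga6 product can also pair with the Itgb4 product in the hemidesmosomes of epithelia. In mesenchymal cells and in bone, collagen-binding integrins attach cells to fibrillar collagen, and the Itga7 product is best known as the laminin receptor of skeletal muscle fibres.

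Each library held between 29096544 and 31651826 counts on genes, and 14531 genes passed the filter on low counts and were tested. A gene was called when its Benjamini-Hochberg adjusted p-value from edgeR's quasi-likelihood test was below 0.05 and its log2 fold change was beyond 0.05 in either direction. Under this rule 75.1% of all tested genes were called, 38% as higher and 37.1% as lower in Hdac4-knockdown libraries, and a call alone therefore says little about the members. With 3 against 3 libraries the exact two-sided permutation test cannot go below p = 0.1, so it was not used as a threshold. Alpl, the alkaline phosphatase gene of the osteoblast lineage, had at most 3 counts in every library of these cells labelled as pre-osteoblasts. Of 10 osteoblast markers 7 were tested, 5 rose, 1 fell and 1 was not called. The 1 that fell was Spp1, from 3154 ± 30.9 to 2046 ± 36.1 CPM (log2 fold change -0.62, edgeR adjusted p = 1.82e-12). Sp7, which rose from 4, 7 and 2 counts to 74, 112 and 68 counts, passed the filter only through the Hdac4-knockdown libraries. Sp7 was named after its values were seen. The summed level of the 10 markers was 4781.8 to 4795.8 CPM in Control and 21459.5 to 22294.7 CPM in Hdac4-knockdown libraries, with the rise mainly in Col1a1 and Col1a2. The summed level of the markers was 0.262 to 0.421 CPM in Control and 3.14 to 3.23 CPM in Hdac4-knockdown libraries for endothelium, 4.42 to 4.88 and 7.54 to 8.86 CPM for Schwann cells and glia, and 1.64 to 2.75 and 5.27 to 6.14 CPM for haematopoietic cells. Only 1 of 7 endothelial, 3 of 6 glial and 3 of 6 haematopoietic markers had enough counts to be tested, of which 1, 2 and 2 rose. Few genes therefore carry these sums. Of those that rose, Pecam1, S100b, Lyz2 and Csf1r passed the filter on low counts only through the Hdac4-knockdown libraries. Their calls as higher are therefore largely set by the filter, and these 4 were named after their values were seen. Skeletal muscle, cartilage and epithelial markers are given beside the members they touch.

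The targeted gene was lower, but not by much. Hdac4 had 1243, 1204 and 1136 counts in Control libraries and 950, 927 and 887 counts in Hdac4-knockdown libraries. The groups did not overlap, and Hdac4 mRNA in Hdac4-knockdown libraries was 73.6% of Control (log2 fold change -0.44, SE 0.0570, edgeR adjusted p = 8.98e-07). Of its 15813 exon bases 3536 are shared with the lincRNA gene Gm26720 on the other strand. The 21-base target of Hdac4-shRNA3 is shown in capitals because it is the sequence by which the groups differ.

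Hdac4-shRNA3 target: GCATGAGGCACAGTTGCATGA

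This target was found whole in 3 of 12 annotated Hdac4 transcripts and in none of the annotated transcripts of the 9 integrin genes. The longest run that a member shared with it was 10 bases, in Itga3.

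All 4 collagen-binding alpha genes had higher counts in Hdac4-knockdown libraries, and the laminin-binding alpha genes Itga3, Itga6 and Itga7 were all lower, while Itgb1, the beta subunit gene of both classes, did not pass the test. Of the 9 members 8 were tested. Itga1, Itga10, Itga11 and Itgb4 rose, Itga3, Itga6 and Itga7 fell, and Itgb1 was not called. Itga2 had too few counts to be tested. The libraries of the groups did not overlap for 7 of the 8 tested members, 4 of them higher and 3 lower in Hdac4-knockdown libraries, beside 76.8% of all tested genes (38.8% higher and 38% lower). Itga1 passed the filter on low counts only through its Hdac4-knockdown libraries, where it is high. Its separation and its call as higher are therefore largely set by the filter. At a threshold of 0.5 all 7 calls stood, beside 44.4% of all tested genes (24.6% higher and 19.8% lower). These 7 members also changed by more than 1 on the log2 scale in either direction, as did 27.1% of all tested genes, of which 16.5% were higher and 10.6% lower.

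**Figure D1:**
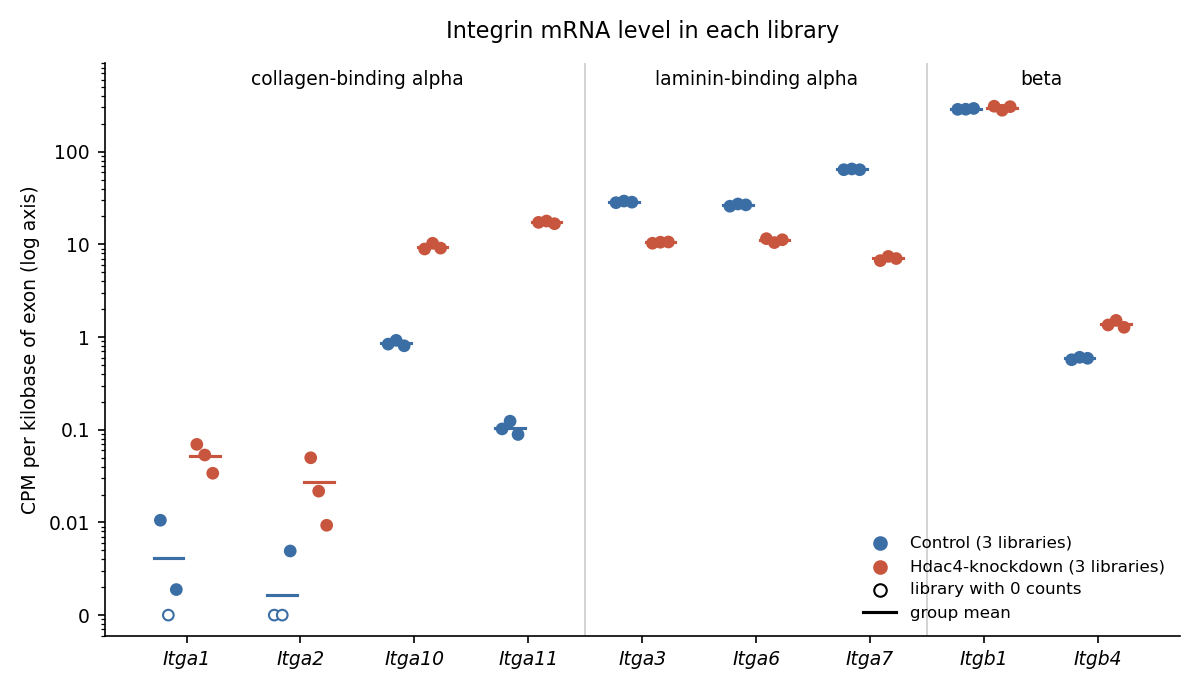
mRNA level of each member in each library, in CPM (counts scaled by library size) per kilobase of exon on a log axis, with Control libraries in blue, Hdac4-knockdown libraries in red, open circles for libraries with 0 counts and bars for the group means. Itga11 crosses from 0.105 to 17.3 and Itga7 from 64.3 to 7.04, while the 6 libraries of Itgb1 lie between 280.2 and 309.5.

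The collagen-binding alpha genes share a stretch of coding sequence for the inserted domain, at its metal-ion site, in exon 6 of each gene. The windows are printed because they hold the longest coding run that Itga11 shares with Itga1 and with Itga10, and hence a place where reads of different members could be confused. Capitals mark the 25 of 42 bases that are the same in all 4 genes, and each window is given 5′ to 3′ on the coding strand in GRCm38, at chr13:115030099-115030140 (minus strand) for Itga1, chr13:114880612-114880653 (minus strand) for Itga2, chr3:96649055-96649096 (plus strand) for Itga10 and chr9:62735292-62735333 (plus strand) for Itga11.

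Itga1: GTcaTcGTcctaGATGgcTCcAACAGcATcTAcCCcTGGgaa
Itga2: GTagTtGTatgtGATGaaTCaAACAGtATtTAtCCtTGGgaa
Itga10: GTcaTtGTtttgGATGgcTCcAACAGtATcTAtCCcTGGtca
Itga11: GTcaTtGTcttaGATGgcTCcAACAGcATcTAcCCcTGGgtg

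The longest run of identical coding bases between any members was 30 bases, between Itga1 and Itga11 in this window, and the next was 20 bases, between Itga3 and Itga6. Itga10 and Itga11 shared no coding run above 14 bases. Over whole transcripts, with the noncoding ends, longer runs of 42 to 50 bases were shared by every pair among Itga1, Itga2, Itga7 and Itga11, the longest between Itga1 and Itga11.

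Itga11, whose product is a collagen receptor of fibroblasts and other mesenchymal cells, had the largest fold change of the members. It lies on the plus strand at chr9:62677826-62783982, and none of its exon bases is shared with another annotated gene. Itga11 had 16, 19 and 13 counts in Control libraries and 2742, 2953 and 2581 counts in Hdac4-knockdown libraries, so that a gene close to the detection limit in the first group was well covered in every library of the second. Its mean rose from 0.538 ± 0.0902 to 88.7 ± 2.94 CPM (counts scaled by library size, SD, n = 3), a 165-fold difference (log2 fold change 7.35, SE 0.0999, edgeR adjusted p = 7.18e-22).

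Itga10, whose product is the collagen receptor best known from chondrocytes, lies on the plus strand at chr3:96645584-96664519. Its counts were 133, 143 and 119 in Control libraries and 1430, 1717 and 1423 in Hdac4-knockdown libraries. Every Hdac4-knockdown library lay far above every Control library. The mean rose from 4.44 ± 0.310 to 48.9 ± 3.81 CPM, 11.0-fold (log2 fold change 3.46, SE 0.0861, edgeR adjusted p = 7.10e-18). Of the 5186 exon bases of Itga10, 1739 (33.5%) are shared with Gm42957, another annotated gene on the same strand that had 0, 0 and 0 counts against 4, 2 and 0. The tables set reads shared between genes aside as ambiguous, so the level of Itga10 may be underestimated in both groups.

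Itga1 and Itga2, the genes of the widely studied collagen receptors of fibroblasts, smooth muscle and platelets, were barely detected. They are neighbours on the minus strand, Itga1 at chr13:114953096-115101964 and Itga2 at chr13:114833081-114932100, with 20996 bases between them. Itga1 had 6, 0 and 1 counts in Control libraries and 40, 32 and 19 counts in Hdac4-knockdown libraries. The groups did not overlap, but the highest level of Itga1 in any library was 1.29 CPM. Its log2 fold change was 3.56 (SE 0.596, edgeR adjusted p = 2.30e-05), and it was 5.52 without Control library 1, which held 6 of the 7 Control counts. Itga2 had 0, 0 and 1 counts against 11, 5 and 2 counts. Its summed ratio was 17.2 with an exact 95% interval of 2.71 to 716 that covers counting error only, and a fit without the filter called it as higher (log2 fold change 3.65, edgeR adjusted p = 0.0138 over 28015 genes).

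The laminin-binding alpha genes have no inserted domain. The windows around the longest run that Itga3 and Itga6 share are printed for contrast with those of the collagen-binding genes. They encode the start of the mature extracellular region, and capitals mark the 16 of 48 bases that are the same in all 3 genes. They lie at chr11:95076208-95076255 (minus strand, exon 2) for Itga3, chr2:71787193-71787240 (plus strand, exon 2) for Itga6 and chr10:128934073-128934120 (plus strand, exon 1) for Itga7.

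Itga3: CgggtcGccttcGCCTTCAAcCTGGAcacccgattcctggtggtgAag
Itga6: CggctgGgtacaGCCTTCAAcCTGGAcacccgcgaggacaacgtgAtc
Itga7: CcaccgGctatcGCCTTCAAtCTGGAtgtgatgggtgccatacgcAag

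Itga7 was the most abundant alpha gene of the group in Control libraries and fell the most. It lies on the plus strand at chr10:128933818-128958282 and had 15805, 15768 and 14736 counts in Control libraries against 1672, 1933 and 1713 counts in Hdac4-knockdown libraries. The lowest Control library was thus many times above the highest Hdac4-knockdown library. The mean went from 520.3 ± 5.59 to 57.0 ± 2.97 CPM, which is 10.9% of Control (log2 fold change -3.19, SE 0.0459, edgeR adjusted p = 1.47e-21).

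Markers of skeletal muscle moved in the same direction as Itga7. All 8 of 8 tested markers of that list were lower in Hdac4-knockdown libraries, Myod1, Myf5, Myog, Myh3, Des, Ckm, Acta1 and Tnnt3, with log2 fold changes from -3.07 to -1.86. None of them was at 0 as a group, and their summed level was 925.7 to 963.8 CPM in Control libraries and 132.3 to 152.0 CPM in Hdac4-knockdown libraries. Their part in the result for Itga7 was not tested. In bulk RNA, fewer cells of a type and less mRNA per cell cannot be told apart.

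Itga3 and Itga6, whose products are laminin receptors of epithelia and many other cell types, fell as well. Itga3 lies on the minus strand at chr11:95044474-95076801 and had 4916, 5011 and 4645 counts in Control libraries and 1817, 1941 and 1823 counts in Hdac4-knockdown libraries. It fell to 36.5% of Control, from 163.8 ± 3.34 to 59.8 ± 0.979 CPM (log2 fold change -1.45, SE 0.0436, edgeR adjusted p = 1.37e-16). Itga6 lies on the plus strand at chr2:71745616-71858416 and had 7118, 7369 and 6864 counts against 3218, 3040 and 3048 counts. It fell to 41.6% of Control, from 240.0 ± 6.67 to 99.9 ± 4.98 CPM (log2 fold change -1.27, SE 0.0455, edgeR adjusted p = 2.43e-15). In neither gene did the groups overlap, and neither shares an exon base with another annotated gene.

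Itgb1, which encodes the beta subunit that all 7 alpha subunits can pair with, was the most abundant member in every library. It lies on the plus strand at chr8:128685654-128733200 and had 35701, 35079 and 34061 counts in Control libraries and 39075, 36845 and 37605 counts in Hdac4-knockdown libraries. After scaling the groups overlapped, with 1168, 1172 and 1195 CPM against 1263, 1143 and 1249 CPM. The log2 fold change was 0.05 (SE 0.0401, edgeR adjusted p = 0.284), and the 95% interval of the level in Hdac4-knockdown libraries was 97.6% to 109.6% of Control. The interval includes no difference as well as small differences in either direction. Itgb1 was called as higher under 3 alternatives, with library size alone, with upper quartile scaling and without Hdac4-knockdown library 2, at log2 fold changes of 0.11, 0.14 and 0.09, and its adjusted p over the alternatives ranged from 0.00409 to 0.671.

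Itgb4, the beta subunit gene of the hemidesmosome, was scarce in both groups. It lies on the plus strand at chr11:115974709-116008412 and had 122, 127 and 118 counts in Control libraries and 293, 342 and 269 counts in Hdac4-knockdown libraries. All Hdac4-knockdown libraries were above all Control libraries. The mean rose from 4.13 ± 0.126 to 9.67 ± 0.856 CPM, 2.34-fold (log2 fold change 1.23, SE 0.118, edgeR adjusted p = 1.32e-08). Of its 7015 exon bases 537 (7.66%) are shared with the lincRNA gene B230344G16Rik on the other strand, and the library kit does not keep the strand. Of 8 epithelial markers 2 were tested, of which Krt14 rose, with 190, 156 and 155 counts against 208, 266 and 229 counts (log2 fold change 0.42, edgeR adjusted p = 0.00447), and Krt8 was not called. Epcam, Krt5 and Esrp1 had no more than 3 counts in every library, and the 8 markers had a summed level of 5.93 to 6.91 CPM in Control and 7.63 to 9.06 CPM in Hdac4-knockdown libraries. Their part in the result for Itgb4 was not tested.

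**Figure D2:**
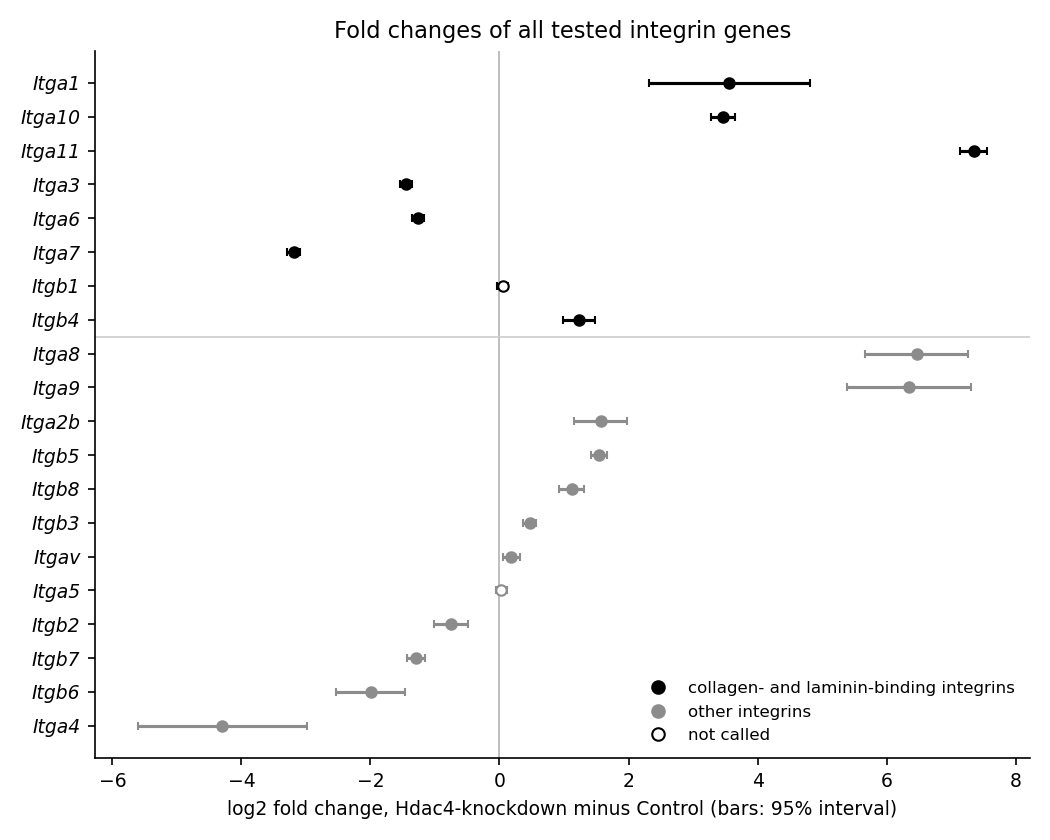
Log2 fold change, Hdac4-knockdown minus Control, of the 20 integrin genes that were tested, with 95% intervals as bars and open circles for genes that were not called. Among the members, in black, Itga11 is farthest to the right at 7.35 and Itga7 farthest to the left at -3.19, while the interval of Itgb1 holds 0.

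To compare levels between genes, CPM was divided by the length of the union of each gene's exons in kilobases. On this scale the order in Control libraries was Itgb1 (289 ± 3.54), Itga7 (64.3 ± 0.691), Itga3 (28.7 ± 0.585), Itga6 (26.6 ± 0.739), Itga10 (0.855 ± 0.0597), Itgb4 (0.588 ± 0.0179) and Itga11 (0.105 ± 0.0176), with Itga1 and Itga2 at no more than 0.0106 in any library. In Hdac4-knockdown libraries the order was Itgb1 (299 ± 16.04), Itga11 (17.3 ± 0.574), Itga6 (11.1 ± 0.552), Itga3 (10.5 ± 0.171), Itga10 (9.43 ± 0.734), Itga7 (7.04 ± 0.367) and Itgb4 (1.38 ± 0.122). Itga6 and Itga3 overlapped in the Hdac4-knockdown libraries, and Itga3 and Itga10 lay apart by about as much as their spread, so that their order there is not resolved. The order also depends on the length used. Itga6 has 9025 exon bases but a longest transcript of 4310, whereas Itga11 has 5131 and 4969. Without division by length, Itga6 (99.9 CPM) lay above Itga11 (88.7 CPM) in Hdac4-knockdown libraries. In Control libraries it then lay above Itga3 (240.0 and 163.8 CPM). Ranks by CPM per kilobase share this limit. Among 14521 genes so ranked, Itga11 moved from rank 13442 to rank 2966 and Itga7 from rank 716 to rank 6096. Itgb1 was at rank 129 in Control and at rank 102 in Hdac4-knockdown libraries.

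The summed alpha level changed in size and in makeup. The 4 collagen-binding genes together went from 0.966 ± 0.0731 to 26.8 ± 1.24 CPM per kilobase, and the 3 laminin-binding genes from 119.6 ± 1.94 to 28.6 ± 0.239 CPM per kilobase. The sum of all 7 alpha genes therefore went from 120.5 ± 2.00 to 55.4 ± 1.08 CPM per kilobase, or from 41.7% ± 0.901 to 18.6% ± 1.40 of the level of Itgb1. The loss of the laminin-binding sum was thus larger than the gain of the collagen-binding sum. The size of these sums and their percentages of Itgb1 depend on the exon length used for each gene.

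Collagen-binding genes made up 0.801%, 0.851% and 0.751% of the summed alpha level in Control libraries and 48.0%, 49.8% and 47.3% in Hdac4-knockdown libraries. Laminin-binding genes thus made up nearly all of the alpha mRNA in the first group and about as much as the collagen-binding genes in the second. Itga11 alone went from a share of 0.0869% to 31.2%, and Itga10 from 0.709% to 17.0%. Itga7 went from 53.4% to 12.7%, Itga3 from 23.8% to 18.9% and Itga6 from 22.1% to 19.998%. These shares depend on the length used, and in Hdac4-knockdown libraries the collagen-binding share was 35.8% with the longest transcript and 39.0% with no division by length. Counts per 1000 counts of Itgb1, which need no library scaling, gave the same directions, with 0.457 to 73.0 for Itga11, 3.77 to 40.3 for Itga10, 442 to 46.9 for Itga7, 139 to 49.2 for Itga3 and 204 to 82.0 for Itga6.

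**Figure D3:**
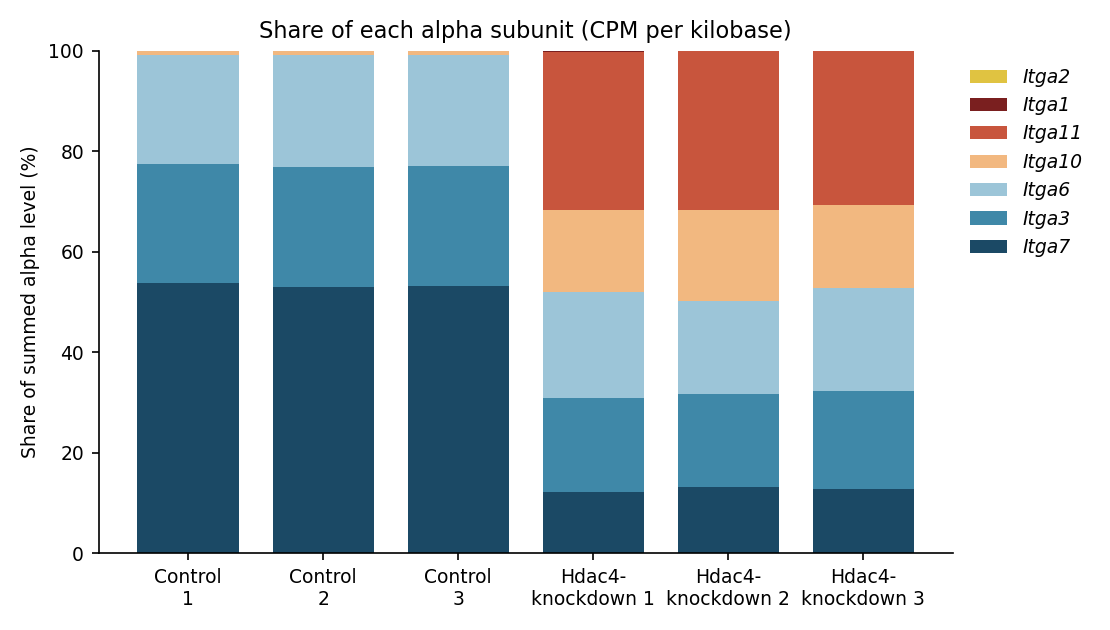
Share of each alpha gene in the summed alpha level of each library, in percent of the summed CPM per kilobase of exon, as stacked bars. The red and orange parts, Itga11 and Itga10, go from means of 0.0869% and 0.709% in Control to 31.2% and 17.0% in Hdac4-knockdown libraries.

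The other integrins, whose products bind fibronectin, vitronectin, other cells or further ligands, moved in both directions. Of 17 genes 12 were tested, 7 rose, 4 fell and 1 was not called, with a median log2 fold change of 0.32 beside 0.01 over all tested genes. These counts, and those of the lists below, stand beside 38% of all tested genes called as higher and 37.1% as lower. Mixed directions alone therefore say little about a list. Genes with few counts in 1 group can pass the filter on low counts only through the other group, and their calls then follow largely from the filter. The most abundant, Itga5, the fibronectin receptor subunit, had 283 ± 11.4 CPM in Control and 288 ± 10.2 CPM in Hdac4-knockdown libraries (log2 fold change 0.03, edgeR adjusted p = 0.554). Itgav, the vitronectin receptor subunit, had 249 ± 9.81 and 283 ± 34.5 CPM (log2 fold change 0.18, edgeR adjusted p = 0.0128), its groups overlapped, and its call was lost without Control library 1, Control library 2 or Hdac4-knockdown library 1. Itgb5, a partner of Itgav, rose from 123 ± 14.5 to 359 ± 13.97 CPM (log2 fold change 1.54). Itgb7, a beta subunit known from lymphocytes, fell from 49.0 ± 2.16 to 19.97 ± 1.15 CPM (log2 fold change -1.29). Itga8 and Itga9, alpha subunits for nephronectin and tenascin, were singled out after their values were seen. Itga8 had 4, 0 and 1 counts in Control and 193, 169 and 136 counts in Hdac4-knockdown libraries (log2 fold change 6.47, 5.90 to 7.97 when each library was left out, the highest without Control library 1). Itga9 had 2, 1 and 0 counts against 90, 120 and 77 counts (log2 fold change 6.34, 5.83 to 7.17 when each library was left out, the highest without Control library 1). Both rose from the detection limit, and both passed the filter on low counts only through the Hdac4-knockdown libraries.

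Genes for the ligands of the collagen-binding integrins were mostly higher in Hdac4-knockdown libraries. Of 19 collagen genes 17 were tested, 15 rose, 1 fell and 1 was not called, and the median log2 fold change was 2.41, or 2.35 with Col4a3, which was at 0 in Control libraries, set at its lower bound. Col1a1 and Col1a2, which form type I collagen, the main protein of bone matrix, rose from 338 ± 14.4 to 11015 ± 326 CPM and from 1213 ± 22.5 to 8572 ± 163 CPM (log2 fold changes 5.03 and 2.82). Col11a1, a fibril-nucleating chain, rose from 1.08 ± 0.143 to 155 ± 4.03 CPM (log2 fold change 7.16). Col2a1, the cartilage collagen and a ligand of the Itga10 product, rose from 0.827 ± 0.179 to 51.1 ± 2.40 CPM (log2 fold change 5.93), and was named after its values were seen. Col4a2, a basement membrane chain, fell from 459 ± 20.8 to 373 ± 20.2 CPM (log2 fold change -0.30). Of 7 cartilage markers 3 were tested, of which Col2a1 and Comp rose and Sox9 was not called. Their median log2 fold change, 4.12, is the value of Comp. Comp, a cartilage matrix gene, had 1, 0 and 2 counts in Control libraries and 24, 20 and 17 counts in Hdac4-knockdown libraries (log2 fold change 4.12, edgeR adjusted p = 8.88e-06, and 4.99 without Control library 3). Comp passed the filter on low counts only through the Hdac4-knockdown libraries. Acan and Matn1 had at most 3 counts in every library. Matn3 and Hapln1 were not tested, and were named after their values were seen. Matn3 was lower, with 6, 6 and 6 counts in Control libraries and 0, 1 and 1 counts in Hdac4-knockdown libraries. Hapln1 was higher, with 4, 0 and 0 counts against 5, 6 and 13 counts. The summed level of the 7 markers was 125.3 to 128.2 CPM in Control and 168.8 to 186.4 CPM in Hdac4-knockdown libraries, of which Sox9 had 125.7 ± 1.66 and 127.4 ± 10.2 CPM. The part of these markers in the result for Itga10 was not tested.

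Genes of the laminin chains, the ligands of the laminin-binding integrins, were divided. Of 11 genes 10 were tested, 5 rose, 3 fell and 2 were not called, and the median log2 fold change was 0.22. Lama1, among those that rose and named after its values were seen, had 0, 1 and 2 counts against 19, 13 and 18 counts. It passed the filter on low counts only through the Hdac4-knockdown libraries, and its call is largely set by the filter. Over all tested genes 38% rose and 37.1% fell. The largest changes were in the alpha chains, which carry the integrin-binding end. Lama5 fell from 461 ± 24.6 to 20.9 ± 0.923 CPM (log2 fold change -4.46, edgeR adjusted p = 1.65e-22), and Lama2, the laminin chain of muscle basement membrane, named after its values were seen, fell from 96.5 ± 1.49 to 30.1 ± 2.07 CPM (log2 fold change -1.68). Lama4, a chain of mesenchymal and vascular basement membranes, rose from 6.13 ± 0.351 to 141 ± 2.74 CPM (log2 fold change 4.52, edgeR adjusted p = 7.18e-22). The shared chains Lamb1 (455 ± 16.1 and 517 ± 11.6 CPM, log2 fold change 0.18, edgeR adjusted p = 2.89e-04) and Lamc1 (394 ± 8.41 and 407 ± 7.87 CPM, log2 fold change 0.05, edgeR adjusted p = 0.261) differed little.

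Other receptors of collagen and laminin moved in both directions, as did all tested genes (38% higher and 37.1% lower). Of 13 genes 11 were tested, 4 rose, 6 fell and 1 was not called, with a median log2 fold change of -0.24. Mrc2, an endocytic collagen receptor, rose from 185 ± 6.22 to 417 ± 15.4 CPM (log2 fold change 1.17), and Cd44, a hyaluronan receptor, fell from 806 ± 15.8 to 572 ± 43.5 CPM (log2 fold change -0.49). Bcam, a receptor for the Lama5 chain, fell from 6.58 ± 0.722 to 0.281 ± 0.108 CPM (log2 fold change -4.54). Rpsa fell from 1856 ± 62.5 to 1556 ± 53.6 CPM (log2 fold change -0.25), and since Rpsa has many near-identical pseudogenes its counts are uncertain.

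Tetraspanins, membrane proteins that bind the laminin-binding integrins, gave 2 genes that rose, 4 that fell and 2 that were not called among 8 tested, with a median log2 fold change of -0.11. Cd37, among those that rose and named after its values were seen, had 10, 4 and 3 counts against 50, 54 and 95 counts. It passed the filter on low counts only through the Hdac4-knockdown libraries. Cd63 was the most abundant (1524 ± 41.6 and 1592 ± 19.5 CPM, log2 fold change 0.06, edgeR adjusted p = 0.115), and Cd9 rose from 276 ± 10.2 to 308 ± 9.37 CPM (log2 fold change 0.16). Cd53, best known from leukocytes, fell from 11.3 ± 0.575 to 2.73 ± 0.245 CPM (log2 fold change -2.05). Cd151, a close partner of the Itga3 and Itga6 products, fell from 194 ± 4.24 to 110.1 ± 3.11 CPM (log2 fold change -0.82), and Cd82 fell from 136 ± 1.97 to 34.0 ± 0.994 CPM (log2 fold change -1.997). Both were named after their values were seen.

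Inside the cell, genes of the adhesion adaptors and kinases that act on integrin tails were mostly lower. Of 20 genes 19 were tested, 2 rose, 14 fell and 3 were not called, with a median log2 fold change of -0.30, but only 3 of the 14 fell by more than 1 on the log2 scale. Parvg, among those that rose and named after its values were seen, had 13, 4 and 7 counts against 53, 76 and 50 counts. It passed the filter on low counts only through the Hdac4-knockdown libraries. Actn4, which crosslinks actin, fell from 763 ± 27.5 to 582 ± 16.2 CPM (log2 fold change -0.39), and its relative Actn1 was not called (456 ± 12.6 and 433 ± 7.63 CPM, log2 fold change -0.07, edgeR adjusted p = 0.0853). Lims2 fell from 17.8 ± 0.0839 to 1.96 ± 0.141 CPM (log2 fold change -3.18), and Tgfb1i1, a paxillin relative, rose from 58.5 ± 4.26 to 69.6 ± 2.98 CPM (log2 fold change 0.25). Ilk, the gene of the integrin-linked kinase, was not tested, with 2, 5 and 0 counts against 2, 9 and 4 counts, and was named after its values were seen. Exon overlap with other genes was examined only for the members and Hdac4. Whether reads of Ilk were set aside as ambiguous is therefore not known, and its low counts may not give its level.

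Activators and inhibitors of integrins gave 5 genes that rose, 6 that fell and 3 that were not called among 14 tested of 15, with a median log2 fold change of -0.14. Tln1, which encodes talin, the activator that binds beta tails, fell from 809 ± 32.3 to 561 ± 26.9 CPM (log2 fold change -0.53), and Flna, an inhibitor at the same site, from 2571 ± 34.7 to 2091 ± 75.7 CPM (log2 fold change -0.30). Tns1 fell from 351 ± 6.87 to 159 ± 6.27 CPM (log2 fold change -1.15), and Kank1, a talin-binding protein, rose from 7.37 ± 0.688 to 58.0 ± 3.55 CPM (log2 fold change 2.98). Of 6 hemidesmosome partners of the Itgb4 product 5 were tested, 2 rose and 3 fell. Plec, the plectin gene, rose from 1568 ± 85.9 to 2456 ± 108 CPM (log2 fold change 0.65), Dst fell from 489 ± 14.1 to 396 ± 32.5 CPM (log2 fold change -0.30), and Col17a1 fell from 6.45 ± 0.376 to 2.75 ± 0.240 CPM (log2 fold change -1.23).

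**Figure D4:**
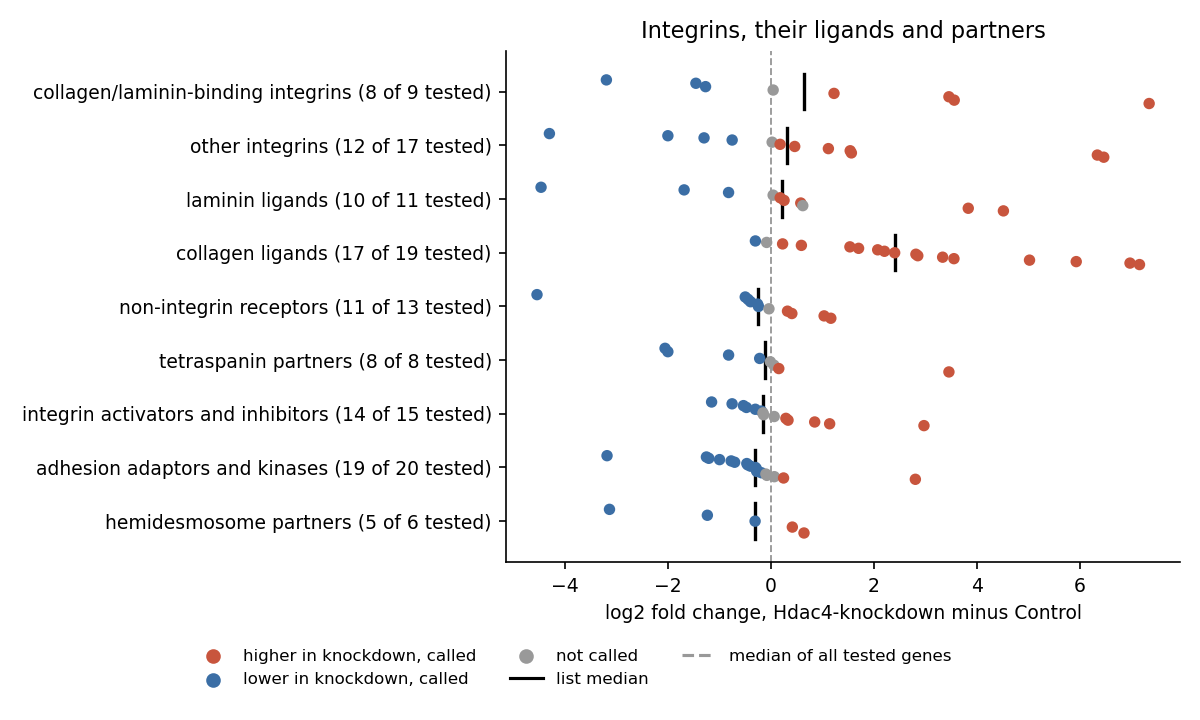
Log2 fold change, Hdac4-knockdown minus Control, of every tested gene of the members and of 8 lists of other integrins, ligands and partners, with red for called as higher, blue for called as lower, grey for not called, a black bar for the list median and a dashed line for the median of all tested genes (0.01). The collagen ligands have the highest median, 2.41, and the adaptors cluster just left of the dashed line with a median of -0.30.

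Genes around the members are counted here beside the 38% called as higher and 37.1% called as lower over all tested genes. Within 200 kb of Itga11, 5 genes were tested, of which 1 rose and 4 fell, and within 200 kb of Itga10, 15 were tested, of which 7 rose and 1 fell. Within 200 kb of Itga3, 9 genes were tested, of which 4 rose and 2 fell, and their median was 0.31 on the log2 scale. The nearest of them, Pdk2, 3120 bases away, rose by a log2 fold change of 0.61, and the genes with the highest and the lowest log2 fold change were Col1a1, 91432 bases away (5.03), and the homeobox gene Dlx3, 43318 bases away on the other side. Dlx3 fell by 6.89 on the log2 scale, and Dlx3 and Pdk2 were named after their values were seen. Itgb1 and Itga1 had no called gene within 200 kb, where 1 and 2 genes were tested. Around Itgb4, 20 genes were tested, of which 12 rose and 4 fell, and around Itga7, 12, of which 3 rose and 3 fell. Around Itga6, 3 were tested, of which 1 rose and 2 fell. Around Itga2, 3 were tested, of which 1 rose, its neighbour Itga1. Differences between these sites were not tested.

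Promoters in RefSeq (GRCm38.p6) were found for 6 of the 9 members, Itga1, Itga2, Itga10, Itga11, Itga3 and Itgb1, and not for Itga6, Itga7 and Itgb4. The 250 bases before the RefSeq start of both strongly raised genes are printed beside those of a lowered gene and of Itgb1. They lie at chr9:62677605-62677854 (plus strand) for Itga11, chr3:96645334-96645583 (plus strand) for Itga10, chr11:95076715-95076964 (minus strand) for Itga3 and chr8:128685404-128685653 (plus strand) for Itgb1. The windows of Itga11 and Itga3 reach into the genes as GENCODE M21 places them. It places Itga11 from 62677826, and Itga3, on the minus strand, up to 95076801. Those parts are therefore not upstream of every annotated start. Capitals mark any match on either strand to 5 motifs, which do not overlap in these windows. The GC box was searched as GGGCGG. The TATA box was searched as TATAAA. The AP-1 site was searched as TGANTCA. The RUNX site was searched as TGTGGT. The myogenic E-box was searched as CAGCTG.

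Itga11: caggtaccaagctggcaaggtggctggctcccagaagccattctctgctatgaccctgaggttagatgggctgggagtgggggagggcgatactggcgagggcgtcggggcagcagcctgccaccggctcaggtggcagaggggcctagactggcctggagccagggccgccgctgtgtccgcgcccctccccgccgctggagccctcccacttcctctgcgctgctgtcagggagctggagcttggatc
Itga10: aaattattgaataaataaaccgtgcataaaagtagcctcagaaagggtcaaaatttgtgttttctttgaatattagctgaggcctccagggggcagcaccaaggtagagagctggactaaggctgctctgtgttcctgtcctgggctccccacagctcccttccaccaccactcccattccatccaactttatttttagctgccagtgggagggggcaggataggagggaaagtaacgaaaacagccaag
Itga3: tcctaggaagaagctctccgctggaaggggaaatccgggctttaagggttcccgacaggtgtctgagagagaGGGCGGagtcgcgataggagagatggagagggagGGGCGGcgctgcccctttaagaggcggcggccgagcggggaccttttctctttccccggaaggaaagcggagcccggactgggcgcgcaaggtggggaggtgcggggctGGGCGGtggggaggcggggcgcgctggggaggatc
Itgb1: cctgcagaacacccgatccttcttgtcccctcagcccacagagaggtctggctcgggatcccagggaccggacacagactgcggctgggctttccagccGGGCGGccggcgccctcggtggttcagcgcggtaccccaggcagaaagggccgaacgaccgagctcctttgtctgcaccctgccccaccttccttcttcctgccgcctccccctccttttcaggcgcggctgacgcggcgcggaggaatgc

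Neither Itga11 nor Itga10 held a match to any of these letters in its window, Itga3 held 3 GC boxes and Itgb1 held 1. Itga3 has a second promoter in the table, at chr11:95069199-95069448 (minus strand), with 1 GC box and 1 RUNX site, and the promoter of Itga1 held 1 myogenic E-box, while that of Itga2 held no match. Of 32851 RefSeq promoter windows of this length, 32.7% held a GC box, 12.4% a TATA box, 6.75% an AP-1 site, 14.05% a RUNX site and 13% a myogenic E-box. The windows of Itga11 and Itga10 also differ in base composition, with 68.4% and 48% of G and C and 12 and 2 CpG. A match is a description of letters and is no evidence of binding.

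Across the 6 libraries, the genes whose log2 level followed Itga11 most closely among 10823 genes with at least 100 counts on average were Ppm1h, Lama4 and Sgsh (Pearson r = 0.99996, 0.99989 and 0.99988, log2 fold changes 4.003, 4.52 and 1.62). The points fall into the groups, and 1067 genes reached an r above 0.99, so that the likeness mostly restates the difference between groups. Among the genes most like Itgb1 were Arid4b and Gtpbp10 (Pearson r = 0.985 and 0.984, log2 fold changes 0.13 and 0.10). These correlations are given as a description over 6 libraries that share the depth and the groups.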

How the data were processed

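Poly-A RNA from 6 MC3T3-E1 samples was sequenced with a kit that does not keep the strand. The authors deposited raw counts per Ensembl gene for each library, without normalization, and the submitters' processing notes name FastQC, STAR 2.7.3a, HTSeq 0.12.4 and the build mm10. The annotation release is not given in the sources used here. Summary lines (14.3% to 15.0% of reads listed) were left out. Of 53801 identifiers 53706 were found in GENCODE M21 (GRCm38).

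The groups were tested with the quasi-likelihood fit of edgeR 4.0.16 (R 4.3.3) after filterByExpr and TMM scaling, with p-values adjusted by Benjamini-Hochberg over 14531 genes, and limma 3.58.1 and DESeq2 1.42.0 served as alternatives. Libraries of a group correlated at 0.993 to 0.994, and differed by more than sampling noise (chi-square per degree of freedom 3.23 to 8.36). Levels are CPM over TMM-scaled library sizes, divided by the exon length in kilobases for comparisons between genes. The log2 CPM used a pseudocount of 0.1 for correlations.

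The members and gene lists were chosen with earlier results of these data known. Beside the members and Hdac4, each list names its 2 most abundant tested genes and, among called genes with at least 100 counts on average, those with the largest and smallest log2 fold change. Any other gene is marked where it is named. Alternatives were other scalings, filters, tests, thresholds and lengths, a replicate block and leaving out each library. For Itga11 and Itgb1 the 3 genes with the highest correlation were to be named, and 1 of them is not reported here.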

Additional observations from a re-analysis of the deposited data

Results flagged for a closer look

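Reads that fell outside annotated genes belong to no comparison above. They made up 3.41%, 3.17% and 3.25% of the reads listed in the Control libraries and 5.07%, 4.64% and 4.66% in the Hdac4-knockdown libraries, and their mean of 4.79% in Hdac4-knockdown libraries lay above every Control library. Their part in the results for the integrin genes was not tested.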

How the results depend on the processing

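Of 358 alternative values of counts and shares, 324 stayed within their limits and 34 moved. The limit was a fixed ratio to the main value for a count and the SD of the group for a share. Shares within a library do not depend on library scaling and could not move under it. A threshold of 0 gave the same 5521 and 5393 calls over all genes. The tally therefore overstates how much was put to the test. The calls of Itga10, Itga11, Itga3, Itga6, Itga7 and Itgb4 kept their direction and their call under every alternative that was run, with log2 fold changes of 3.40 to 3.55, 7.24 to 7.48, -1.50 to -1.36, -1.31 to -1.18, -3.23 to -3.10 and 1.16 to 1.32. Itga1 was at 2.99 to 5.52 and called throughout, but a filter of 10 counts in every library removed it, and Itgb1 was at 0.02 to 0.14, called under 3 alternatives. Leaving out each library gave 5370 to 5519 genes called as higher and 5165 to 5402 as lower, 4 to 5 members called as higher, and 1 to 2 collagen ligands called as lower.

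A log2 threshold of 0.5 left 3579 genes called as higher and 2879 as lower, and a threshold of 1 left 2397 and 1543. All 7 called members passed both. The lists shrank in the order 0.5 then 1 to 3 and 2 laminin ligands called as higher, 0 and 0 collagen ligands called as lower (2 without the filter), 2 and 2 non-integrin receptors called as higher and 1 and 1 as lower, 1 and 1 tetraspanins called as higher (2 as lower at a threshold of 1), 3 and 2 activators and inhibitors called as higher and 3 and 1 as lower, 1 and 1 adaptors called as higher and 6 and 3 as lower, and 1 and 0 hemidesmosome partners called as higher. A higher threshold leaves fewer genes by its construction.

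The collagen-binding share of the alpha level was 0.453% in Control and 35.8% in Hdac4-knockdown libraries with the length of the longest transcript, 0.545% and 39.0% with no division by length, and 1.15% and 52.4% with exon bases shared with other genes left out, an alternative chosen after seeing the data. Of 764 alternative values of 55 other named genes 736 kept direction and call, 8 reversed, 3 were no longer called and 17 were newly called. Spp1, untested genes and genes named only for how they passed the filter are not among these 55. Itga5 reversed to -5.16e-05 without the filter and to -0.0093 without Control library 1 (range when each library was left out -0.0093 to 0.0573, adjusted p over its alternatives 0.0164 to 0.999), and Actn1 reversed to 0.016 with upper quartile scaling (0.0283 to 0.721). Sox9 reversed to -0.010 without the filter, and was at -0.0104 to 0.086 when each library was left out, with 3 of these values below 0 (0.0599 to 0.99), and Krt8 was at -0.11 to 0.45 (0.452 to 0.941). The cause was not tested. The groups share replicate numbers, but deviations of same-numbered libraries correlated at only -0.011, 0.027 and 0.017, and not every library correlated best with its own number. With the replicate block 5523 genes were called as higher and 5441 as lower, and the members again gave 4 and 3. Depth limits Itga1 and Itga2, whose Control counts were 7 and 1 in all.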
